A study of Mus musculus with 6 samples.

Results

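Ccl8 Postn fibroblasts of the mouse large bowel were cells of the cecum and the large intestine that carried transcripts of the fibroblast receptor gene Pdgfra together with Postn and Ccl8. They were selected on measured values, as barcodes with at least 1 unique molecular identifier (UMI, 1 counted transcript molecule) of each of these 3 genes and no UMI of Foxl1, Pi16, Prox1, Ptprc or Myh11, which mark telocytes, universal fibroblasts, lymphatic endothelium, leukocytes and smooth muscle. Of 25702 cells kept in the cecum and large intestine libraries, 21864 carried Pdgfra and 3193 met the rule, and the whole series held 102534 kept cells. The members numbered 2048 in cecum and 1145 in large intestine.

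The cells came from Flare-TSLP mice on a C57BL/6 background, in which tdTomato reports activity of the Tslp locus. Live tdTomato+ cells of the lamina propria were sorted, labeled with barcoded antibodies (hashtags) and captured in droplets with no treatment named in the labels. The groups were the cecum (1 library), the large intestine (1 library), the proximal small intestine (2 libraries) and the distal small intestine (2 libraries). The reporter mouse and the sort were common to all groups, and the sources used here do not give the mouse behind each hashtag. Each library was therefore 1 sample, and the 3 hashtags of a library are given below as descriptions and not as replicates.

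Fibroblasts under the intestinal epithelium hold the matrix in place and send WNT, BMP, growth factor and chemokine signals to the epithelium and to immune cells. Ccl8 encodes a secreted CC chemokine that attracts leukocytes, Postn encodes periostin, a matrix protein made by activated and subepithelial fibroblasts, Pdgfra encodes a receptor for platelet-derived growth factor, and Wnt4 encodes a secreted WNT ligand. In the mouse genome (GRCm39) Ccl8 lies on chromosome 11 from 82006007 to 82007625 on the plus strand. It is in a chemokine cluster with Ccl2 (81926397 to 81928279), Ccl7 (81936532 to 81938351), Ccl11 (81948618 to 81953781) and Ccl12 (81992645 to 81994466). Postn lies on chromosome 3 from 54268501 to 54298471, Wnt4 on chromosome 4 from 137004373 to 137027037, and Pdgfra on chromosome 5 from 75311994 to 75358876, each on the plus strand. The annotation has a microRNA gene, Mir7025, overlapping Pdgfra on the same strand.

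The 6 libraries held between 109675337 and 206827504 gene UMIs, with median depths of 6772 UMIs per kept cell in cecum and 9413 in large intestine. No cell barcode was a member in both large bowel libraries, and 51 members of the cecum and 22 of the large intestine had barcodes that also passed the filter in some other library. Scrublet predicted 7.28% of the cecum members and 3.84% of the large intestine members to be doublets, against 7.13% and 5.64% of the other Pdgfra-positive cells. More than 1 hashtag was called in 12.3% of the cecum members and 9.78% of the large intestine members.

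The first question was how large the group was in each library. Members made up 17.4% of the Pdgfra-positive cells of the cecum (16.7 to 18.1%, exact binomial limits at 95%) and 11.4% of their large intestine counterparts (10.7 to 12.0%). With at least 2 UMIs of Postn and Ccl8 the shares were 8.69% and 5.10%, and with cells thinned to 2500 UMIs 8.82% and 4.90%. The intervals cover counting error only, and with 1 library for each region the difference was not tested. Among the hashtags of the cecum the share was 11.1% with HT0301, 19.6% with HT0302 and 22.7% with HT0303. In the large intestine it was 11.6%, 10.7% and 12.7% with the same hashtags, so the lowest cecum hashtag lay within the range of the large intestine. Cells with no called hashtag held fewer members, 2.88% of 763 in cecum and 3.62% of 276 in large intestine.

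**Figure D1:**
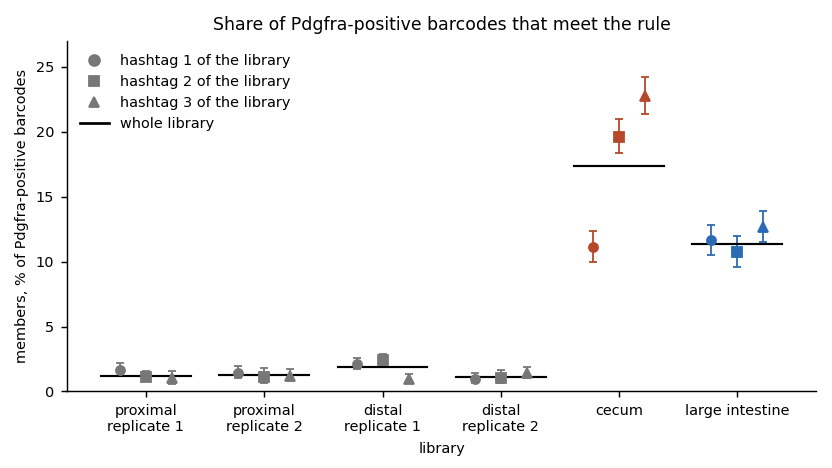
Members as a percentage of the Pdgfra-positive cells (vertical axis) in each library (horizontal axis), with 1 point per hashtag, 95% exact binomial intervals as bars and the whole library as a black line. The 3 cecum hashtags spread from 11.1 to 22.7%, those of the large intestine from 10.7 to 12.7%, and all 12 hashtags of the small intestine lie at or under 2.46%.

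Each condition of the rule contributed to these numbers. Postn was detected in 83.4% of the Pdgfra-positive cells of the cecum and 87.9% of those of the large intestine, against 46.6 to 51.9% in the small intestine. Of the cells with both, 26.0% in cecum and 19.8% in large intestine also carried Ccl8, against 3.05 to 4.75% in the small intestine. The excluded genes then removed 502 cells in the cecum, of which 269 carried Pi16, and 606 in the large intestine, of which 311 carried Myh11 and 304 carried Foxl1. In the small intestine the same rule found 151 and 137 cells in the proximal and 346 and 140 in the distal libraries, or 1.10 to 1.85% of the Pdgfra-positive cells.

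Ccl8 was sparse even among members. A single Ccl8 UMI was present in 49.4% of the cecum members and 54.1% of the large intestine members, and 4 or more in 20.5% and 20.7%. In each small intestine library at least 82.9% of the cells that met the rule had a single Ccl8 UMI. Postn was deeper, with a median of 15 UMIs in cecum and 24 in large intestine members. At the threshold stood 1011 and 620 members with 1 Ccl8 UMI, and just outside it 4870 and 3553 cells that met every other condition with 0.

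Free RNA gives a background for these UMIs. Levels were scaled to 1000000 gene UMIs (CPM). Ccl8 stood at 89.9 CPM in the free RNA of the cecum library and at 86.6 CPM in that of the large intestine, measured in barcodes with at most 100 UMIs. In cells with the lymphatic endothelial genes Prox1 and Pecam1 and without Pdgfra, which served as a type that should lack it, Ccl8 was detected in 1.59% of 189 cells (median depth 5070 UMIs) and in 2.80% of 250 cells (7581.5 UMIs). In all Pdgfra-positive cells it was detected in 22.3% (median 6942 UMIs) and 18.2% (9725 UMIs). Its level there was 73.1 and 50.7 CPM, below that of the free RNA. Pdgfra-positive cells with Foxl1 carried it in 17.2% and 15.0%, and those with Pi16 in 13.9% and 10.4%. In cells with Myh11 and without Pdgfra it was detected in 12.2% and 8.93%. After thinning every cell to 2500 UMIs the shares were 11.6% and 7.34% in Pdgfra-positive cells and 1.06% and 0.800% in lymphatic cells. In Ptprc-positive cells without Pdgfra, Ccl8 stood at 349 CPM in cecum and 435 CPM in large intestine, carried by 6 of 58 and 11 of 101 cells.

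The label was then checked against its markers. For this and all following values, UMIs were summed over the members or over the other Pdgfra-positive cells of a library and expressed as CPM. By selection, Ccl8 stood at 338 CPM in cecum members and 15.7 CPM in the others. In large intestine members it stood at 268 CPM, against 22.2 CPM. Postn stood at 2203 and 1217 CPM in the cecum and at 2567 and 1368 CPM in the large intestine. Pdgfra itself was lower in members, at 363 against 576 CPM and 385 against 820 CPM. Wnt4, the only marker the rule did not use, was at 392 CPM in cecum members against 193 CPM in the others (2.03-fold), and at 251 against 199 CPM (1.26-fold) in the large intestine.

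Wnt4 did not mark the members alone. In Pdgfra-positive cells with Foxl1, the transcription factor gene of telocytes, Wnt4 reached 557 CPM in cecum and 297 CPM in large intestine, in each case above the members of the same library. By hashtag, members carried 378, 381 and 445 CPM of Wnt4 in the cecum against 138, 208 and 231 CPM in the others. In the large intestine they carried 307, 226 and 223 CPM against 250, 206 and 157 CPM. The members were above the others with every hashtag, by a smaller margin in the large intestine.

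The near misses of the rule differed from one another. Cells without a Pdgfra UMI that met every other condition, 456 in cecum and 133 in large intestine, resembled members in Adamdec1, a disintegrin-like protease gene of lamina propria fibroblasts (10213 and 8906 CPM, members 8751 and 7615 CPM). They also resembled them in Fgf10, which encodes a fibroblast growth factor for the epithelium (343 and 296 CPM, members 343 and 300.3 CPM). Cells without a Postn UMI, 62 and 41 in number, carried 264 and 413 CPM of Adamdec1 and 2.54 and 23.3 CPM of Wnt4. Cells without Ccl8 lay between members and the other Pdgfra-positive cells in the cecum, with 5346 CPM of Adamdec1 and 176 CPM of Fgf10. In the large intestine they also lay between in Adamdec1 (4902 CPM) and Fgf10 (178 CPM), but their Wnt4 (175 CPM) was below that of members (251 CPM) and of the others (199 CPM).

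The next question was which genes set members apart from the other Pdgfra-positive cells of their own library. The values are descriptions without a test, because the rule chose the members on the same cells. A gene counted as apart when it differed at least 2-fold in the same direction in both libraries, with at least 20 CPM in the higher group of both. Of 6926 genes at that level, 32 were higher in members (0.462%) and 102 were lower (1.47%), with the 8 rule genes left out. The excluded genes were at 0 in members only. Against others that also had none of their UMIs, 14 of the 32 and 67 of the 102 remained. Over all genes at that level the median log2 ratio of members to others was 0.01 in cecum and -0.04 in large intestine.

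Cxcl5 and Saa3 ranked first among the genes higher in members, by the smaller fold of both libraries. Cxcl5, which encodes a neutrophil attractant, was at 39.7 CPM in cecum members against 8.43 CPM in the others (4.71-fold). In the large intestine it was at 64.0 against 13.7 CPM (4.67-fold). With the 3 hashtags it stood at 21.2, 49.4 and 45.6 CPM in cecum members and at 133, 44.3 and 36.4 CPM in large intestine members, against 5.25 to 15.8 CPM in the others. No hashtag of the members overlapped the others. Saa3, which encodes a serum amyloid A protein of inflamed tissue, was 3.77-fold and 3.08-fold higher, at 88.9 and 290 CPM in members. Within each library every hashtag of the members lay above its own others, but Saa3 varied widely, from 36.4 to 213 CPM in cecum members and from 98.5 to 515 CPM in large intestine members, and its UMIs came from 4.69% and 10.9% of the members.

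Fgf10 was detected in 74.0% of cecum members and 74.6% of large intestine members, against 31.8% and 40.0% of the others, and its level was 2.86-fold and 2.39-fold higher. With the hashtags it stood at 410, 335 and 371 CPM in cecum members and at 291, 295 and 334 CPM in large intestine members, above a range of 113 to 134 CPM in the others. Edil3, which encodes a secreted integrin ligand, stood at 192 against 77.1 CPM in the cecum (2.49-fold) and at 474 against 161 CPM in the large intestine (2.94-fold). Against others with no UMI of the excluded genes, neither was past 2-fold in both libraries. Fgf10 was then 2.41-fold higher in cecum and 1.95-fold in large intestine members, and Edil3 1.92-fold and 1.93-fold.

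The other genes named by the largest fold were smaller in level. St6galnac5, a sialyltransferase gene, was at 110 and 94.0 CPM in cecum and large intestine members against 37.1 and 36.4 CPM in the others. Ptger1, the gene of a prostaglandin E receptor, was at 41.4 and 37.0 CPM against 12.0 and 15.3 CPM. Both also missed 2-fold in the large intestine against others with no UMI of the excluded genes (1.885-fold and 1.997-fold). Nr2f1, the gene of an orphan nuclear receptor, was at 47.7 and 32.2 CPM against 18.9 and 12.8 CPM. Tafa1, Chl1 and Slc16a12, which encode a secreted chemokine-like peptide, a neural adhesion molecule and a transporter, were between 24.5 and 95.8 CPM in members and at least 2-fold lower in the others of the same library.

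**Figure D2:**
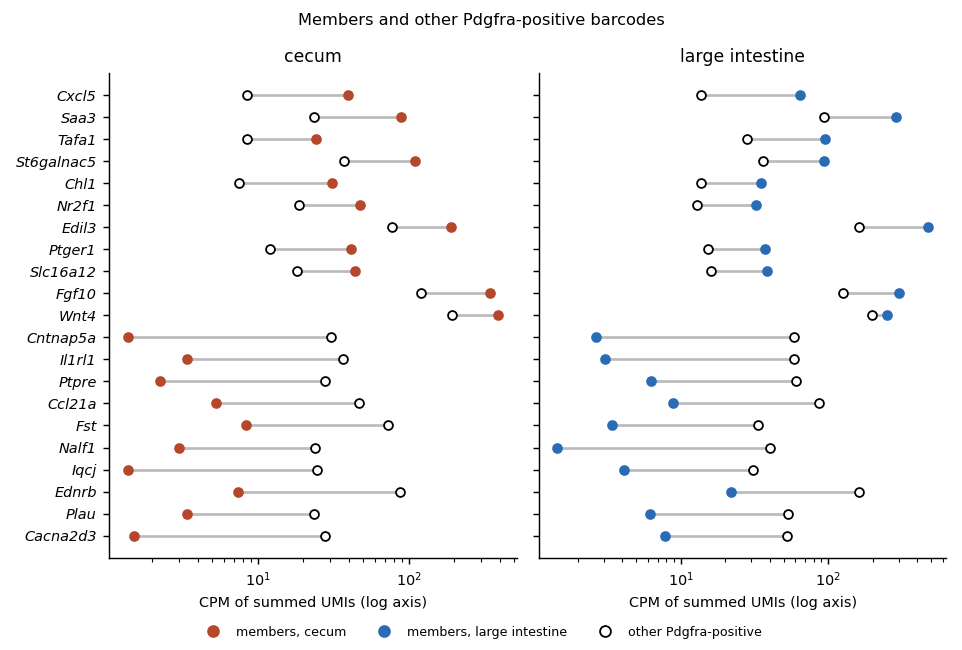
CPM of summed UMIs (log axis) of Wnt4 and the 20 named genes (rows) in members (filled) and other Pdgfra-positive cells (open) of the cecum (left) and the large intestine (right). The 10 genes from Cxcl5 to Fgf10 lie higher in members of both libraries and the 10 from Cntnap5a to Cacna2d3 lower, while Wnt4 is 2.03-fold higher in cecum and 1.26-fold in large intestine.

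Among the genes lower in members, Il1rl1, which encodes the receptor for IL-33, was at 3.38 CPM in cecum members against 36.4 CPM in the others (10.8-fold lower). In large intestine members it was at 3.07 against 58.2 CPM (0.0528-fold). With the hashtags it stood at 2.89, 6.18 and 1.10 CPM in cecum members and at 1.67, 2.89 and 4.33 CPM in large intestine members, while the lowest of the others was 24.05 CPM. Fst, the gene of the activin inhibitor follistatin, was at 8.38 against 72.6 CPM in the cecum and at 3.39 against 33.2 CPM in the large intestine. Against others with no UMI of the excluded genes, Il1rl1 was 0.115-fold in cecum and 0.120-fold in large intestine members. Fst was then 0.151-fold and 0.194-fold.

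Ednrb, which encodes an endothelin receptor, was at 7.38 against 87.0 CPM in the cecum and at 21.9 against 162 CPM in the large intestine. Plau, which encodes urokinase, was at 3.38 against 23.7 CPM and at 6.14 against 53.1 CPM. Cntnap5a, a neurexin family gene, ranked first of the lower genes by the smaller fold of both libraries, 22.3-fold in cecum and 21.9-fold in large intestine. Against others with no UMI of the excluded genes, Cntnap5a was 0.102-fold and 0.138-fold the level of the others. Ednrb was then 0.123-fold and 0.298-fold, and Plau 0.161-fold and 0.228-fold. Ptpre, Nalf1 and Cacna2d3 were at 1.45 to 7.76 CPM in members and at 23.8 to 60.5 CPM in the others. Against others with no UMI of the excluded genes these 3 were between 0.0661-fold and 0.309-fold. Iqcj shares its strand with the overlapping readthrough gene Iqschfp and Ccl21a has near-identical copies, so the counts of both are uncertain. The lymphatic list, which holds Ccl21a, summed to 9.57 CPM in cecum members against 104 CPM in the others and to 15.5 against 171 CPM in the large intestine, with Prox1 at 0 by rule. Ccl21a was 0.112-fold and 0.102-fold the level of the others, and 0.327-fold and 0.492-fold against others with no UMI of the excluded genes. The part of lymphatic cells among the others was not tested.

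Grouped by role, the WNT list held 8 genes at the level, of which none was higher and Wnt5a was lower in members (34.2 against 82.2 CPM in the cecum, 60.1 against 229 CPM in the large intestine). Of 14 chemokine genes, Cxcl5 and the eotaxin gene Ccl11 were higher, and Ccl21a and the scavenging receptor gene Ackr4 were lower. Ccl11 stood at 1018 against 465 CPM in the cecum and at 538 against 248 CPM in the large intestine. Of 12 BMP, activin and TGF-beta genes, Fst and Inhba were lower and none was higher. Of 17 growth factor and prostaglandin synthase genes, Fgf10 was higher and 4 were lower, including Nrg1, Fgf9 and Ptn. Of 44 matrix genes only Tgfbi passed, as lower, and none of 10 complement genes passed.

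The lists of fibroblast types differed from one another. Of 7 lamina propria fibroblast genes at the level, Edil3 and Ccl11 were higher and none was lower, with a median log2 ratio of 1.13 in cecum and 0.73 in large intestine. Adamdec1, which belongs to that list, stood at 8751 against 4003 CPM (2.19-fold) and at 7615 against 4124 CPM (1.85-fold). In Pdgfra-positive cells with Foxl1 it was at 9487 CPM in cecum, above the members, and at 4721 CPM in large intestine. Of 9 subepithelial fibroblast genes, Procr, Nrg1, Wnt5a, Sox6 and F3 were lower and none was higher, with medians of -1.13 and -1.41. Of 7 trophocyte genes, Cd81 and Ackr4 were lower, and none of 6 universal fibroblast genes passed. Cells with Foxl1 or Pi16 were excluded by the rule, and both types remained among the others.

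Markers of other cell types were measured beside these values. Among smooth muscle genes, Acta2, Tagln and Hhip were lower in members, and the whole list summed to 252 against 584 CPM in the cecum and to 509 against 1756 CPM in the large intestine, with Myh11 at 0 by rule. Cells with Myh11 were removed from the members only and remained among the others, and their part in these values was not tested. The immunoglobulin genes Igkc and Jchain were past the fold in members, but not without cells rich in plasma cell or epithelial UMIs. The summed plasma cell level was 607 against 273 CPM in the cecum and 264 against 113 CPM in the large intestine, with hashtags of members from 31.1 to 1713 CPM and from 89.7 to 782 CPM. In the cecum, 20 of the 2048 members held 95.3% of those UMIs. Without cells that carried at least 5 plasma cell or epithelial UMIs, Igkc was at 23.6 against 15.5 CPM in cecum members and others (543 against 237 CPM with all cells) and at 34.3 against 23.0 CPM in the large intestine. There were then 30 higher and 99 lower genes, of which 29 and 98 were among those found with all cells.

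Of the reporter genes themselves, Tslp was sparse. It stood at 2.19 CPM in cecum members against 2.37 CPM in the others, and at 1.70 against 2.02 CPM in the large intestine. The tdTomato transcript stood at 5.38 against 7.33 CPM and at 3.23 against 5.43 CPM. Both were under 20 CPM in every group, so neither could count as apart.

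Among cells that met every other condition, levels were then followed over the number of Ccl8 UMIs per cell, at 0, 1, 2 to 3 and at least 4. As the rule used Ccl8 and the genes were named for their levels in members, these values are a description only. Cxcl5 was at 10.6, 22.7, 35.5 and 85.0 CPM in the cecum and at 11.8, 45.4, 63.8 and 106 CPM in the large intestine, higher at each step in both. Fgf10 was at 176, 315, 319 and 445 CPM in the cecum and at 178, 288, 328 and 296 CPM in the large intestine, with the largest step between 0 and 1 UMI. Of the named genes higher in members, only Cxcl5, Saa3 and Tafa1 were highest in the cells with the most Ccl8 in both libraries. Edil3 and Nr2f1 in both, Slc16a12 in the cecum, and Fgf10, St6galnac5, Ptger1 and Chl1 in the large intestine were highest in cells with fewer. Edil3 was at 124, 200.1, 192 and 173 CPM in the cecum and at 291, 513, 479 and 382 CPM in the large intestine. St6galnac5 was at 52.4, 105, 112 and 120 CPM in the cecum, but at 58.2, 96.4, 103 and 78.7 CPM in the large intestine. Cd81, which encodes a tetraspanin of trophocytes, was lower at each step, from 347 to 90.02 CPM and from 269 to 45.0 CPM. The median depth of the cells also rose over these classes, from 6746 to 7350.5 UMIs in the cecum and from 9122 to 11087 UMIs in the large intestine, and its part in the result was not tested.

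**Figure D3:**
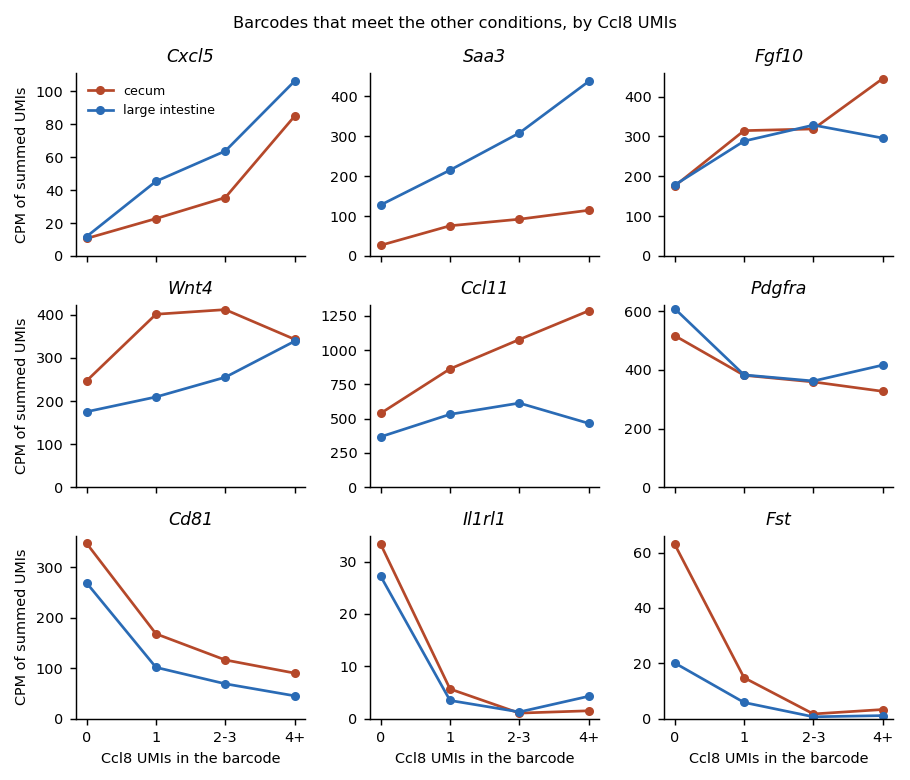
CPM of summed UMIs (vertical axes, from 0) of 9 genes in cells that met the other conditions, by Ccl8 UMIs per cell (horizontal axes), for the cecum (red) and the large intestine (blue). Cxcl5 climbs from 10.6 to 85.0 CPM in the cecum and from 11.8 to 106 CPM in the large intestine, while Il1rl1 and Fst are highest at 0 Ccl8 UMIs.

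The members of the cecum were next set beside those of the large intestine. With 1 library each there was no test, and intervals are exact Poisson limits that cover counting error only. Of 7411 genes with at least 20 CPM in the higher library, 166 were at least 2-fold higher in cecum members (2.24%) and 165 in large intestine members (2.23%). With large intestine members weighted to the depth of cecum members, the counts were 190 and 140, of which 157 and 122 were among the 166 and 165. The other Pdgfra-positive cells showed the same 2-fold difference for 117 of the 166 and 117 of the 165.

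Hoxa13, a homeobox gene of the hindgut, was at 0 in cecum members and at 30.0 CPM in large intestine members, with 0 and 30.7 CPM in the others. It thus separated the regions in members and others alike. Col6a5, a collagen VI chain gene, was at 420.0 CPM in cecum members (410.0 to 430.1 CPM) and 26.1 CPM in large intestine members (23.3 to 29.1 CPM), and lower in the other cells, at 118 and 22.8 CPM. The adhesion and receptor genes Lrrtm4, Nrxn3, Lrp1b, Cntn6 and Cntn3 were higher in the cecum, with Lrp1b at 132 against 8.08 CPM and Cntn6 at 104 against 10.2 CPM. Spock3, a proteoglycan gene, was at 58.7 CPM in large intestine members against 1.63 CPM, and Lef1, a WNT pathway transcription factor gene, at 28.0 against 0.188 CPM.

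Epithelial transcripts were among the genes higher in the large intestine. Lypd8, Ckmt1, Epcam, Spink4 and Upp1 were between 20.5 and 182 CPM in large intestine members and at most 0.250 CPM in cecum members. Lypd8 stood at 6.13, 7.07 and 296 CPM with the 3 hashtags. Without the 59 of 1145 members that carried at least 5 epithelial or plasma cell UMIs, Lypd8 was at 6.08 CPM, Epcam at 1.28 CPM and Spink4 at 1.198 CPM, and none of these 5 genes reached 20 CPM. Hoxa13 was at 29.3 CPM without them.

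Signalling genes also differed between the regions. Il33, an alarmin gene, was at 204 CPM in cecum members (197 to 212 CPM) and 45.1 CPM in large intestine members (41.4 to 49.0 CPM). Il6 was at 38.6 and 4.12 CPM. Tnfsf13b, which encodes the B cell factor BAFF, was higher in the large intestine, at 180.3 against 50.7 CPM. Of 14 chemokine genes, Cxcl1, Cxcl14, Cxcl16 and Cx3cl1 were higher in the cecum and Ccl2, Cxcl9 and Cxcl13 in the large intestine. Of 10 subepithelial genes, 6 were higher in the large intestine, Bmp7 and Sox6 among them. Of 17 early response genes, 13 were higher in the cecum, with Fosb at 1426 against 319 CPM and Egr1 at 2847 against 806 CPM. The whole list of 18 summed to 26041 against 10513 CPM in members and 33227 against 11514 CPM in the others, and their part in the differences between the regions was not tested.

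**Figure D4:**
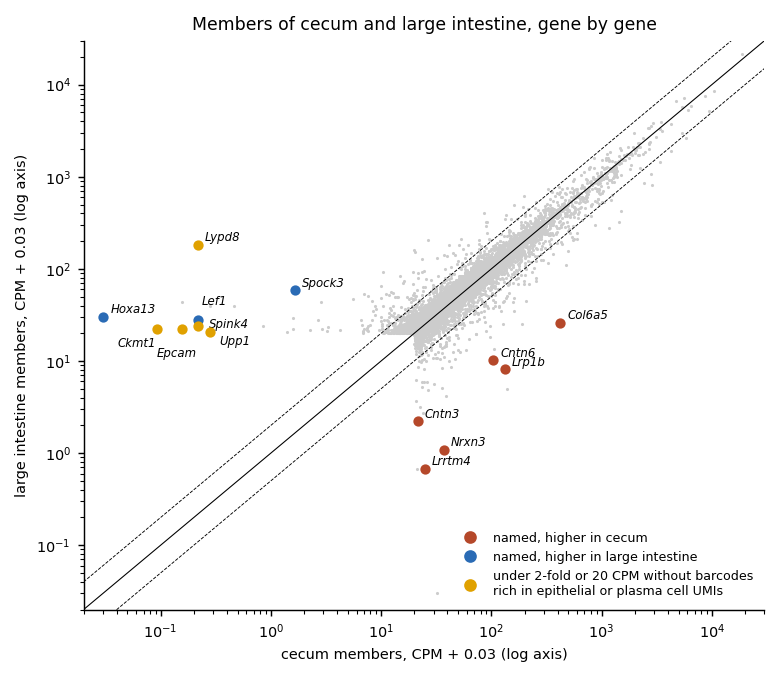
Each gene (grey) by its CPM plus 0.03 in cecum members (horizontal, log axis) and large intestine members (vertical, log axis), with the diagonal and dashed lines at 2-fold. Named genes higher in the cecum are red and those higher in the large intestine blue, and the 5 in yellow drop under 20 CPM without the cells rich in epithelial or plasma cell UMIs.

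Finally, large bowel cells were compared with small intestine cells that met the same rule, a contrast the rule did not use. In Pdgfra-positive cells of the small intestine Ccl8 stood at 4.59 to 7.76 CPM, in each library below its free RNA (5.70 to 23.0 CPM). Most small intestine cells that met the rule had a single Ccl8 UMI, and the part of free RNA in this group was not tested. UMIs were summed per library and tested with edgeR's quasi-likelihood test, cecum and large intestine against the 4 small intestine libraries, with Benjamini-Hochberg adjustment over 12111 genes. The 8 rule genes were not tested. At an adjusted p under 0.05, 878 genes were higher (7.25%) and 913 lower (7.54%) in the large bowel. The counts fell to 518 and 506 without proximal replicate 1, to 548 and 578 without proximal replicate 2, and to 609 and 583 without the cecum. With only the small intestine libraries that shared the hashtag set of the large bowel, replicate 1 of each region, 251 were higher and 360 lower. With the replicate number as a term, 506 were higher and 629 lower, of which 435 and 561 were among those called without it. The small intestine sums rested on 137 to 346 cells each, of which Scrublet predicted 7.14 to 18.2% to be doublets, the most in distal replicate 1 (others there 11.3%). Without predicted doublets 850 were higher and 829 lower. As the 2 large bowel libraries are different regions, the p-values measure the spread between libraries, regions included, and not the spread between animals. The test took all libraries as independent. Whether those with the same hashtag set shared mice is not given in the sources used here.

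Wnt4 was among the genes that rose. It stood at 21.4 and 34.8 CPM in the proximal and at 7.87 and 31.1 CPM in the distal libraries, against 392 CPM in cecum and 251 CPM in large intestine, a log2 difference of 3.84 ± 0.41 (SE, adjusted p = 0.000868). Every small intestine library lay below both large bowel libraries. The other Pdgfra-positive cells carried 23.96 to 60.01 CPM in the small intestine and 193 and 199 CPM in the cecum and large intestine. Pdgfra-positive cells with Foxl1, which the rule excludes, carried 230 to 299 CPM of Wnt4 in the small intestine. In cecum and large intestine such cells carried 557 and 297 CPM. The part of this exclusion in the Wnt4 difference was not tested. Of 14 WNT genes tested, Wnt4, Wnt5b, Wnt2 and Sfrp2 rose and Sfrp1, Rspo3, Rspo2 and Dkk2 fell, with Sfrp2 not called with the libraries of the same hashtag set. Wnt5b rose by 2.80 ± 0.31 on the log2 scale (adjusted p = 0.001). Dkk2, a WNT modulator gene, was at 452, 395, 734 and 863 CPM in the small intestine and at 19.5 and 2.26 CPM in the large bowel. Rspo3, the gene of a WNT amplifier, fell by 2.08 ± 0.27 (adjusted p = 0.00212).

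Of 17 genes tested of the list of BMP, activin and TGF-beta genes, Bmp4 and Bmp7 rose and Grem1, Tgfb3 and Chrd fell. Bmp4 was at 223 to 328 CPM in the small intestine and at 477 and 646 CPM in the large bowel, and Grem1, a BMP inhibitor gene, at 455 to 829 CPM and at 54.9 and 165 CPM. Fgf10 was at 36.8 to 112 CPM and at 343 and 300.3 CPM, a log2 difference of 2.17 ± 0.31 (adjusted p = 0.00315). Of the 19 genes tested of that list of growth factors and prostaglandin synthases, 8 rose and none fell. The others that rose were the growth factor genes Nrg1, Fgf9, Vegfa, Hgf and Ereg and the cyclooxygenase genes Ptgs1 and Ptgs2. The libraries of Hgf overlapped, with 149 CPM in cecum and 93.5 to 149.6 CPM in the small intestine (adjusted p = 0.0445). In the other Pdgfra-positive cells Fgf10 was at 44.5 to 116 CPM in the small intestine and at 120 and 126 CPM in the large bowel. Of 19 chemokine genes, 5 rose, including Cxcl12 (1.06 ± 0.17) and the receptor gene Ackr3 (2.33 ± 0.17), and Ackr4 fell. Cxcl5, ranked first among the genes higher in members, was not called. It was at 24.4 to 86.7 CPM in the small intestine and at 39.7 and 64.0 CPM in the large bowel (adjusted p = 0.876). Edil3 and Ccl11, also higher in members than in the others, were not called either (adjusted p = 0.695 and 0.163).

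Of 44 matrix genes 4 rose, including the basement membrane genes Col4a6 (3.00 ± 0.27) and Col4a5 (2.34 ± 0.26), and 8 fell, including Mmp3, Sparcl1 and Dcn. Of 10 complement genes 3 fell, C3 and C7 among them. Of 8 trophocyte genes 5 fell (Dkk2, Grem1, Ackr4, Rspo3 and Cd34), and of 11 subepithelial genes 5 rose (Bmp7, Sox6, Nrg1, Agt and Procr) and Itga8 fell. Glp2r, the receptor gene for glucagon-like peptide 2, rose by 0.80 ± 0.17 (adjusted p = 0.0155), from 37.4 to 53.6 CPM in the small intestine to 80.9 and 79.4 CPM. It was higher, at 126 and 112 CPM, in cecum and large intestine cells without Ccl8 that met every other condition. Of 8 lamina propria fibroblast genes 1 rose (Cxcl12) and 3 fell (Fbln1, Lum and Vwc2), with a median log2 difference of -0.03. Adamdec1 of that list missed the threshold (log2 difference 0.90, adjusted p = 0.0725). Of 6 universal fibroblast genes 3 rose and none fell, with a median of 1.23.

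Markers of other cell types and early response genes were measured beside these values. Of 6 lymphatic genes 4 fell, and the list summed to 24.5 to 152 CPM in the small intestine and to 9.57 and 15.5 CPM in the large bowel, with Prox1 at 0 by rule. Of 7 blood endothelial genes 3 fell. Of 6 pericyte genes tested 1 fell, Rgs5, and none rose, with a median log2 difference of 0.39 over the 6. Rgs5 was at 619.7 to 1464 CPM in the small intestine and at 21.7 and 80.1 CPM in the large bowel. Of 5 proliferation genes 4 rose, with Top2a at 0 to 1.46 CPM and at 9.95 and 11.6 CPM. Of 18 early response genes 4 rose and none fell, with the list at 9283 to 12196 CPM in the small intestine, 26041 CPM in cecum and 10513 CPM in large intestine. Of the T cell and innate lymphoid list 1 gene was tested, Thy1, a surface glycoprotein gene that stromal cells also express. It was at 0 to 1.96 CPM in the small intestine and at 63.9 and 26.8 CPM in the large bowel (log2 difference 5.44 ± 0.55, adjusted p = 0.000707), with Ptprc at 0 by rule. Of 3 plasma cell genes tested none was called, and that list summed to 4546 CPM in distal replicate 1 against 236 to 546 CPM in the other small intestine libraries. Of 4 smooth muscle genes tested Des, a muscle filament gene, rose by 1.84 ± 0.37 on the log2 scale (adjusted p = 0.0121), and the list summed to 147 to 238 CPM in the small intestine and to 252 and 509 CPM in the large bowel. No epithelial gene of the list passed the filter on low counts, and its sum was 1.96 to 6.54 CPM in the small intestine, 2.94 CPM in cecum and 103 CPM in large intestine. Their part in the result was not tested.

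Among the genes that rose, the largest fitted differences were in genes with no UMI in the small intestine. Against a floor of 3 counts over the 4 small intestine libraries, the homeobox genes of the posterior body Hoxa10, Hoxd11 and Hoxd10 were at least 203-fold, 113-fold and 48.1-fold higher. Hoxa10 was at 59.7 and 82.8 CPM in the cecum and large intestine. Wfdc13, Sfrp2 and Cntnap4 were at least 75.6-fold, 37.5-fold and 23.5-fold higher, but missed the threshold with the libraries of the same hashtag set. Hoxa11 and Hoxa11os were also at 0 in the small intestine, with Hoxa11os not called with limma-voom or with the same hashtag set, and as they are antisense to one another and the use of strand in counting is not given in the sources used here, their reads may not be told apart.

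Among the genes that fell, Lrat, which encodes a retinol esterifying enzyme, was at 81.3 to 371 CPM in the small intestine and at 3.13 and 0.647 CPM in the large bowel. Vwc2, the gene of a BMP-binding protein, was at 129 to 195 CPM and at 2.75 and 0.0808 CPM. Cyp1b1, a cytochrome P450 gene, was at 57.1 to 122 CPM and at 1.38 and 0.404 CPM. Cntnap3 and Cdh8 fell from lower levels and missed the threshold with limma-voom. Defa24, Defa30 and Defa21 encode near-identical defensins of Paneth cells, an epithelial type of the small intestine, so their counts are uncertain and they mark another cell type.

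**Figure D5:**
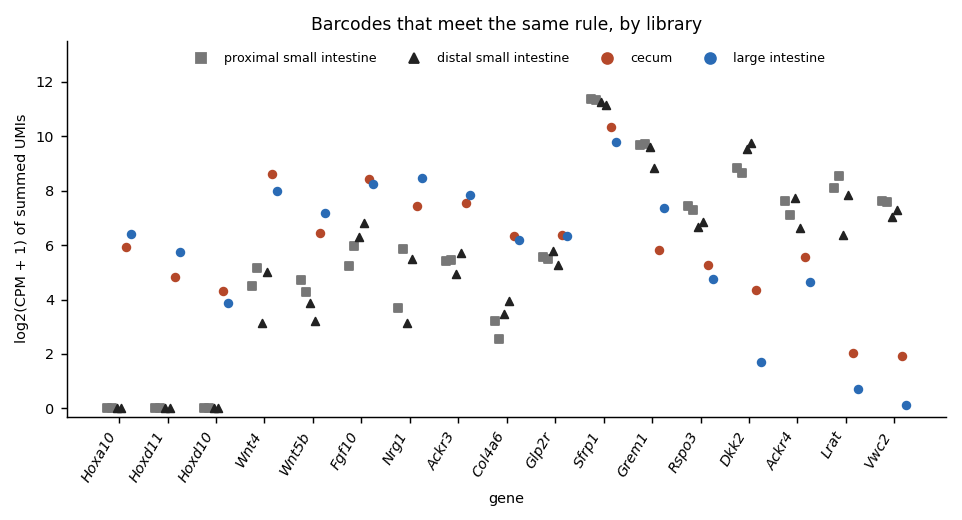
log2(CPM + 1) of summed UMIs (vertical axis) of 17 genes (horizontal axis) in cells that met the same rule, with 1 point per library for the proximal (squares) and distal (triangles) small intestine, cecum (red) and large intestine (blue). Hoxa10, Hoxd11 and Hoxd10 are at 0 in all 4 small intestine libraries, and Wnt4 is at 7.87 to 34.8 CPM there against 392 and 251 CPM.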

How the data were processed

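Live tdTomato+ lamina propria cells were profiled by droplet single-cell RNA-seq in 6 libraries. The deposited values are counts, UMIs per gene and barcode, which the authors made with Cell Ranger (8.1.0 and mm39 in the submitters' processing notes, unfiltered). A barcode was kept if it had from 2500 to 40000 gene UMIs, from 1000 to 7500 genes, and a mitochondrial share below 10%. Doublets were predicted with Scrublet in scanpy 1.11.5 and removed in an alternative only. UMIs were summed per library and group and given as CPM. Only the region contrast was tested (edgeR 4.0.16, quasi-likelihood, filterByExpr, TMM), with limma-voom (limma 3.58.1) and DESeq2 1.42.0 as alternatives, and the scripts were tested on simulated data. Named genes were the 10 (members against others) or 8 (other comparisons) per direction with the largest fold, and for the gene lists those past the fold or test. The 8 were taken only from genes whose hashtags (cecum against large intestine) or libraries (region test) did not overlap. Rule genes, mitochondrial genes and genes with Gm or Rik names were passed over in these rankings. Adamdec1, Tslp, tdTomato and list genes beyond 4 per direction were added after their values were seen. A hashtag was called per barcode. Hashtags served to multiplex samples, but which mouse each marks is not given in the sources used here. Intervals cover counting error only. The members, gene lists and tests were chosen with earlier results of these data known. Gene places are from GRCm39. The authors' later doublet and free RNA corrections are not in the deposited counts. Some genes that the naming rule picked are not reported here.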

Additional observations from a re-analysis of the deposited data

Results flagged for a closer look

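Rcan2, which encodes a regulator of calcineurin, was the only gene at least 2-fold apart in opposite directions in the 2 libraries. In the cecum members carried 15.7 CPM against 58.4 CPM in the other Pdgfra-positive cells (0.269-fold), and in the large intestine 70.3 against 33.3 CPM (2.11-fold). In the cecum it was lower in members with each hashtag (21.7, 16.7 and 4.23 CPM against 77.3, 58.2 and 46.7 CPM), and in the large intestine higher with each (47.9, 129 and 49.4 CPM against 27.9, 36.2 and 31.9 CPM). The difference was not tested, since each region is 1 library.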

How the results depend on the processing

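The share of members moved from 17.4% (cecum) and 11.4% (large intestine) to 8.69% and 5.10% with at least 2 UMIs of Postn and Ccl8, to 8.82% and 4.90% with cells thinned to 2500 UMIs, and to 21.7% and 17.4% with no excluded genes. In the cecum it was 18.2% both with 1 called hashtag and with a stricter cell filter. Against others at 0 UMIs of the excluded genes, 19 genes were higher and 91 lower, of which 14 of the 32 and 67 of the 102 found with all others remained (St6galnac5, Edil3, Ptger1 and Fgf10 did not). With a minimum of 5 CPM, 59 genes were higher and 241 lower in members, and 331 were higher in cecum and 387 in large intestine members. With 50 CPM these counts were 18, 53, 105 and 81. In the region test, 1838 genes were higher with no filter on low counts. With a replicate block, chosen after seeing the data, 506 were higher and 629 lower. The labels number the small intestine libraries only, so both large bowel libraries entered as replicate 1, whose hashtag set they share. With libraries of that hashtag set alone, 251 were higher and 360 lower. Leaving out each library in turn gave 518 to 1076 higher and 506 to 898 lower. The causes were not tested. Leaving out cells by hashtag or by epithelial and plasma cell UMIs was chosen after seeing the data. Without the cells of HT0301, HT0302 or HT0303, 25, 28 and 24 of the 32 higher genes remained. Of the 102 lower genes 95, 98 and 76 then remained. With at least 2 UMIs of Postn and Ccl8, 21 of the 32 and 90 of the 102 remained. For the named genes and Wnt4, 119 folds of members over others under the alternatives stayed within the counting error of the member UMIs. Another 133 moved beyond it, and all kept their direction. Of the named genes' region values under the alternatives, 221 kept direction and call and 9 missed the threshold (Hoxa11os, Defa24, Cntnap3 and Cdh8 with limma-voom, Cdh8 without the cecum, and Hoxa11os, Wfdc13, Sfrp2 and Cntnap4 with the same hashtag set). The region test with at least 2 UMIs was not run, since small intestine libraries held under 50 such cells.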
